A study of Mus musculus with 10 samples.

Results

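The OAS family holds the 2′-5′-oligoadenylate synthetases and their Oasl relatives. In the array table used here it consisted of 11 genes of 19938 measured. Members were all genes with a probe of their own whose symbol is Oas followed by a digit or by l: Oas1a, Oas1b, Oas1c, Oas1d, Oas1e, Oas1f, Oas1h, Oas2, Oas3, Oasl1 and Oasl2. Each had 1 such probe. A further probe carries the symbols of both Oas1a and Oas1g, so it stood for neither gene, and Oas1g was not analysed here.

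OAS enzymes sense double-stranded RNA in the cytosol and, once bound to it, join ATP into short chains with 2′-5′ linkages. These chains act as second messengers that set off the breakdown of viral and cellular RNA and so halt protein synthesis. Transcription of the family is a textbook response to type I interferon, which acts on promoter sites called interferon-stimulated response elements. In the mouse the gene for the single-unit enzyme is duplicated many times (Oas1a to Oas1h), Oas2 and Oas3 encode proteins with tandem OAS units, and the Oasl proteins end in ubiquitin-like domains.

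The samples were whole tumors of MC38, a colon carcinoma line of the mouse, grown under the skin of C57BL/6 mice until about 40 mm2. The treated group was 5 tumors that received 50 µg CpG1826 (volume 50 µL, in PBS) by injection and were dissected after 6 h (mice 50, 58, 183, 189 and 595). The control group was 5 PBS tumors (mice 26, 29, 482, 592 and 661), for which the same schedule was assumed. CpG1826 is a synthetic DNA oligonucleotide with unmethylated CpG motifs, a ligand of the endosomal receptor TLR9. The age of the animals was not given in the sources used here, and each tumor was read as 1 mouse.

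The promoters of the members are shown first because the family is known for its interferon response. RefSeq (GRCm38.p6) promoter sequences matched 7 of the 11 members. The usual core of an interferon-stimulated response element, GAAA and a second GAAA with any 2 bases between them, was searched on both strands from 250 bases before to 50 bases after each annotated gene start. It occurred in the promoters of Oas1a, Oas1c and Oas3 and not in those of Oas1f, Oas1h, Oasl1 and Oasl2. Of 32851 mouse promoters of the same length, 1131 (3.44%) held it, and of 24 promoters of other interferon-stimulated genes, 8 (33.3%). The 250 bases before the start are printed 5′ to 3′ for the 3 promoters with a match and for Oasl1, the member with the largest change, with matches in capitals. The lines give, in this order, chr5:120907526-120907775 (minus strand), chr5:120812515-120812764 (minus strand), chr5:120777660-120777909 (minus strand) and chr5:114922990-114923239 (plus strand).
Oas1a: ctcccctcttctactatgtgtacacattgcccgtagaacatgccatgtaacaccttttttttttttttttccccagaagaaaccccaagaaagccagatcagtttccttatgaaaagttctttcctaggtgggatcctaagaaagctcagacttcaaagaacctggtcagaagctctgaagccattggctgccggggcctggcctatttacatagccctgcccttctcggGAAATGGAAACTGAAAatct
Oas1c: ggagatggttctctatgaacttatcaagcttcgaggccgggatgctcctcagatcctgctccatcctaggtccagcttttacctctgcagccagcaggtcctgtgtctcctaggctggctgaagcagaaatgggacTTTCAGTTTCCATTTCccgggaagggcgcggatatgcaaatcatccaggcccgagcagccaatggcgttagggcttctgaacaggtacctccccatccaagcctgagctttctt
Oas3: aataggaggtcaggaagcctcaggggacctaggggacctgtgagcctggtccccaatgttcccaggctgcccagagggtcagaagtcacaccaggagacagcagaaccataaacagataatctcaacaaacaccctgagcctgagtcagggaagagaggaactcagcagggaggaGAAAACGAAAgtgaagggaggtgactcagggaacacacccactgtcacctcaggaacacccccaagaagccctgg
Oasl1: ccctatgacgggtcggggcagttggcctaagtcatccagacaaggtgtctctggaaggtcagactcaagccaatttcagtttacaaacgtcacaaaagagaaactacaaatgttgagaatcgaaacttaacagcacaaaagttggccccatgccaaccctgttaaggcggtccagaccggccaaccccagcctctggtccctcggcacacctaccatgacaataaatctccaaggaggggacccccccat
In Oas1a 2 matches overlap, beginning 20 and 14 bases before the start. In Oas1c 2 overlapping matches lie on the other strand, with their left ends 114 and 108 bases before the start, and Oas3 has 1 match, 75 bases before it. A match is a string of letters, not a measured binding site. The search allowed no mismatch and covered only this window. A promoter without a match, such as that of Oasl1, is therefore not shown to lack a response element.

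The members lie on chromosome 5 at separate places. In the order of the RefSeq table, Oasl2 and Oasl1 are neighbours, and the Oas genes form a second, uninterrupted run from Oas2 and Oas3 through Oas1e, Oas1c, Oas1b, Oas1f, Oas1h, Oas1g and Oas1a to Oas1d. RefSeq lists Oas1b of the C57BL/6J reference as a transcribed pseudogene and the others as protein-coding. An intact Oas1b is known for the resistance of wild mice to flaviviruses, which common laboratory strains have lost.

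The comparison asked which transcripts differ between the 2 groups at this early time. Of the 11 OAS genes, 5 rose in CpG1826 tumors and 0 fell: Oasl1, Oas1b, Oas3, Oas2 and Oas1a (limma, Benjamini-Hochberg adjusted p under 0.05 over 19938 genes). Of all genes tested, 3.56% were called higher and 1.1% lower, 4.66% in either direction. The called changes were moderate, from 1.33-fold to 1.77-fold. At an unadjusted p under 0.05, 8 members were higher and 0 lower, against 8.13% and 7.43% of all genes. The median log2 fold change was 0.28 over the 11 members and -0.02 over all genes. In bulk tumors, a change in RNA per cell and a change in the number of cells that hold the RNA cannot be told apart. Leaving out PBS mouse 26, PBS mouse 661 or CpG1826 mouse 183 reduced the count of 5 to 3. The share of all genes called in those fits is not given here.

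**Figure D1:**
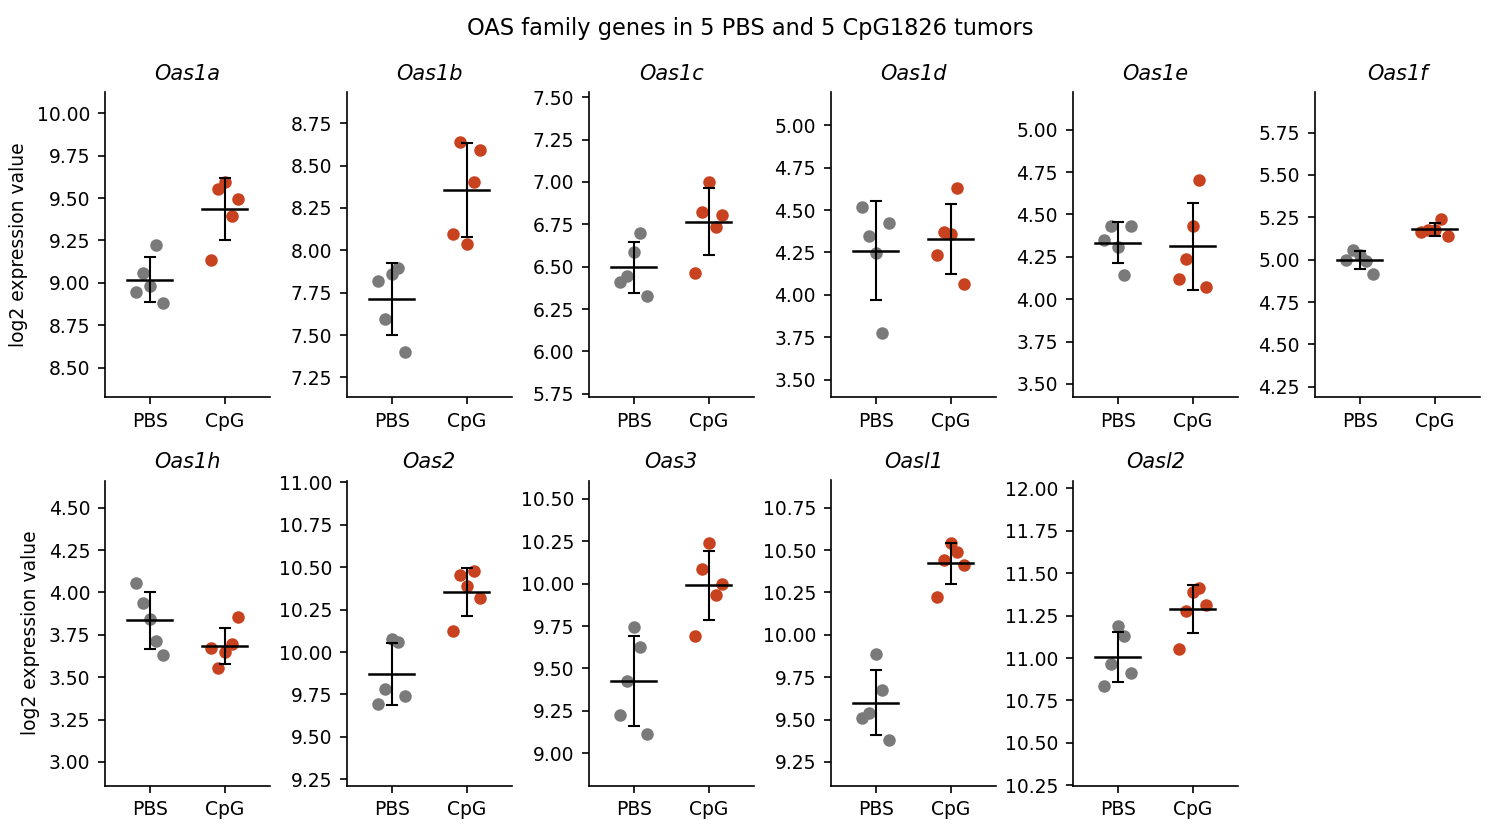
Expression of the 11 OAS genes in each tumor, as log2 values on panels of equal height. Points are tumors (grey PBS, red CpG1826, 5 each), bars are the group mean and whiskers the SD. The groups separate fully in Oas1b, Oas1f, Oas2 and Oasl1, and the points of Oas1d, Oas1e and Oas1h intermingle.

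Oasl1 showed the largest change. Its protein binds RNA but makes no oligoadenylate, and it is known to restrain interferon production by blocking translation of Irf7 mRNA. On the log2 scale its value in PBS tumors was 9.51 in mouse 26, 9.54 in mouse 29, 9.89 in mouse 482, 9.68 in mouse 592 and 9.38 in mouse 661. In CpG1826 tumors it was 10.22 in mouse 50, 10.44 in mouse 58, 10.54 in mouse 183, 10.49 in mouse 189 and 10.41 in mouse 595. All 5 CpG1826 values lay above all 5 PBS values. Group means were 9.60 ± 0.19 for PBS and 10.42 ± 0.12 for CpG1826 (SD, 5 tumors each). Oasl1 thus rose by 0.82 ± 0.10 on the log2 scale (SE), which is 1.77-fold with a 95% interval of 1.53 to 2.04 (limma adjusted p = 0.000152). This rise passed in all 10 fits that leave out 1 mouse.

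Oasl2, its neighbour, encodes an Oasl protein that has kept synthetase activity. Its values were 10.83, 10.96, 11.19, 11.13 and 10.91 in PBS mice 26, 29, 482, 592 and 661, and 11.05, 11.28, 11.39, 11.41 and 11.31 in CpG1826 mice 50, 58, 183, 189 and 595. The CpG1826 value of mouse 50 lay below those of PBS mice 482 and 592, and the other 4 exceeded every PBS value. The difference of 0.28 ± 0.09 (SE; 1.22-fold, 1.07 to 1.39) missed the threshold (limma adjusted p = 0.108). Leaving out mouse 50 brought it to 0.34 and past the threshold (limma adjusted p = 0.0407, the lowest of the 10 such fits, which reached 0.228).

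Oas2 encodes a synthetase with tandem OAS units. Its PBS values were 9.69, 9.78, 10.08, 10.06 and 9.74, and its CpG1826 values 10.13, 10.45, 10.39, 10.48 and 10.32, in the same order of mice. The groups did not overlap, though PBS mouse 482 and CpG1826 mouse 50 lay close together. Oas2 rose by 0.48 ± 0.10 on the log2 scale (SE; 1.4-fold, 1.21 to 1.61, limma adjusted p = 0.00971), and this call held in all 10 fits that leave out 1 mouse.

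Oas3 encodes the longest synthetase of the family, which responds to long double-stranded RNA. Its values were 9.22, 9.43, 9.75, 9.63 and 9.11 in PBS tumors and 9.69, 10.08, 10.24, 9.94 and 9.996 in CpG1826 tumors. CpG1826 mouse 50 lay below PBS mouse 482, and the other 4 CpG1826 tumors lay above all PBS tumors. Oas3 rose by 0.56 ± 0.13 on the log2 scale (SE; 1.48-fold, 1.22 to 1.79, limma adjusted p = 0.0213). Leaving out any one of PBS mice 26, 29 and 661 and CpG1826 mouse 183 ended the call for Oas3, and across all 10 such fits the limma adjusted p ran from 0.0110 to 0.0646. The rise ran from 0.48 to 0.64 in these fits.

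Oas1a is an enzymatically active Oas1 copy. PBS tumors had 8.95, 9.06, 8.98, 9.23 and 8.88, and CpG1826 tumors 9.13, 9.55, 9.59, 9.39 and 9.50. As with Oas3, mouse 50 was the single CpG1826 tumor below a PBS tumor, here mouse 592. The rise of 0.42 ± 0.09 (SE; 1.33-fold, 1.16 to 1.54, limma adjusted p = 0.0219) was the smallest of those called. The call did not hold in every fit that leaves out 1 mouse: leaving out any one of PBS mice 26, 482 and 661 and CpG1826 mice 58, 183 and 595 ended it. Across the 10 such fits the rise ran from 0.38 to 0.49 on the log2 scale. The limma adjusted p ran from 0.00440 to 0.0629.

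The transcript of Oas1b, a pseudogene in this strain, rose as well. PBS values were 7.82, 7.60, 7.86, 7.90 and 7.40, and CpG1826 values 8.10, 8.64, 8.04, 8.40 and 8.59. The groups did not overlap, and the CpG1826 tumors divided into lower ones (mice 50 and 183) and higher ones (58, 189 and 595). Its rise was 0.64 ± 0.13 on the log2 scale (SE; 1.56-fold, 1.28 to 1.90, limma adjusted p = 0.0122), and it passed in all 10 fits that leave out 1 mouse.

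Oas1c, which lies beside Oas1b, did not pass. PBS values were 6.41, 6.45, 6.59, 6.70 and 6.33, and CpG1826 values 6.46, 6.82, 7.002, 6.74 and 6.81. Mouse 50 lay among the PBS tumors, and the other 4 CpG1826 tumors lay above them. The difference was 0.27 ± 0.10 (SE; 95% confidence interval 0.05 to 0.49, limma adjusted p = 0.194).

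The remaining Oas1 copies had dim probes: the mean values of Oas1d, Oas1e, Oas1f and Oas1h lay below the lower quartile of all genes, and none of these 4 passed. Oas1d, best known from the oocyte, ranged from 3.77 to 4.52 in PBS and from 4.06 to 4.63 in CpG1826 tumors (difference 0.07 ± 0.13, SE). Oas1e ranged from 4.14 to 4.43 and from 4.07 to 4.70 (-0.02 ± 0.11). Oas1h ranged from 3.63 to 4.05 and from 3.55 to 3.85 (-0.15 ± 0.09). In these 3 genes the groups overlapped. Oas1f differed in that its groups did not overlap: 4.92 to 5.06 in PBS and 5.14 to 5.24 in CpG1826 tumors. Its difference of 0.18 ± 0.06 (SE) comes with small spreads (SD 0.05 and 0.04) and did not pass (limma adjusted p = 0.113). How far a dim probe or one shared in part with a near-identical Oas1 copy compresses a change was not tested.

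**Figure D2:**
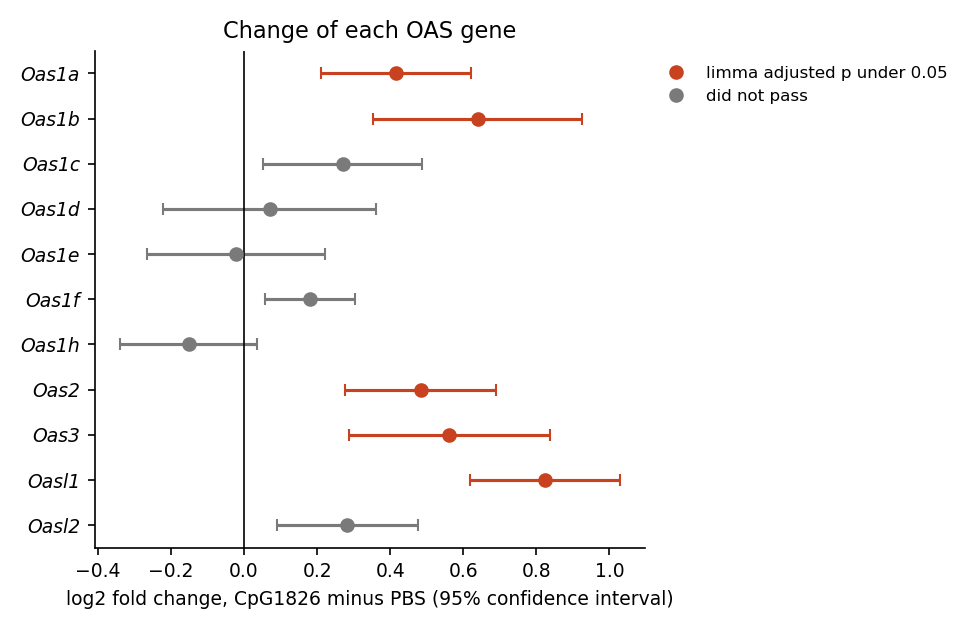
Log2 fold change of each OAS gene, CpG1826 minus PBS, with the 95% confidence interval of the limma fit (5 tumors per group). Red marks genes with an adjusted p under 0.05, which are Oas1a, Oas1b, Oas2, Oas3 and Oasl1, and grey the others. Oasl1 lies farthest right at 0.82.

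Over the 11 members, the values of the 5 CpG1826 and 5 PBS tumors did not overlap for 4 genes, all higher, where 4.35% of all genes separated in that direction, 2.42% in the other and 6.78% in either. Without CpG1826 mouse 50, 8 members did not overlap, all higher, where 5.9% of all genes separated in that direction. Leaving out a tumor cannot lower this count. The 8 was the highest of the 10 counts with 1 mouse left out, which began at 4. Mouse 50 had the lowest CpG1826 value for 6 of the 7 genes Oas1a, Oas1b, Oas1c, Oas2, Oas3, Oasl1 and Oasl2. This alone favours a higher count without it. PBS mouse 661 had the lowest PBS value for 5 of the 7. PBS mice 482 and 592 held the highest PBS value for 4 and 3 of the 7. Measured as the distance from each gene's PBS mean and averaged over the 7 genes, mouse 50 stood at 0.24, the other CpG1826 tumors at 0.53 to 0.59, and the PBS tumors between -0.20 and 0.17. In Oas1b, mouse 183 was the lowest of the CpG1826 tumors. The order of the other 4 CpG1826 tumors varied: mouse 189 was the highest in Oas2 and Oasl2, and below mice 58, 183 and 595 in Oas1a, Oas1c and Oas3.

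**Figure D3:**
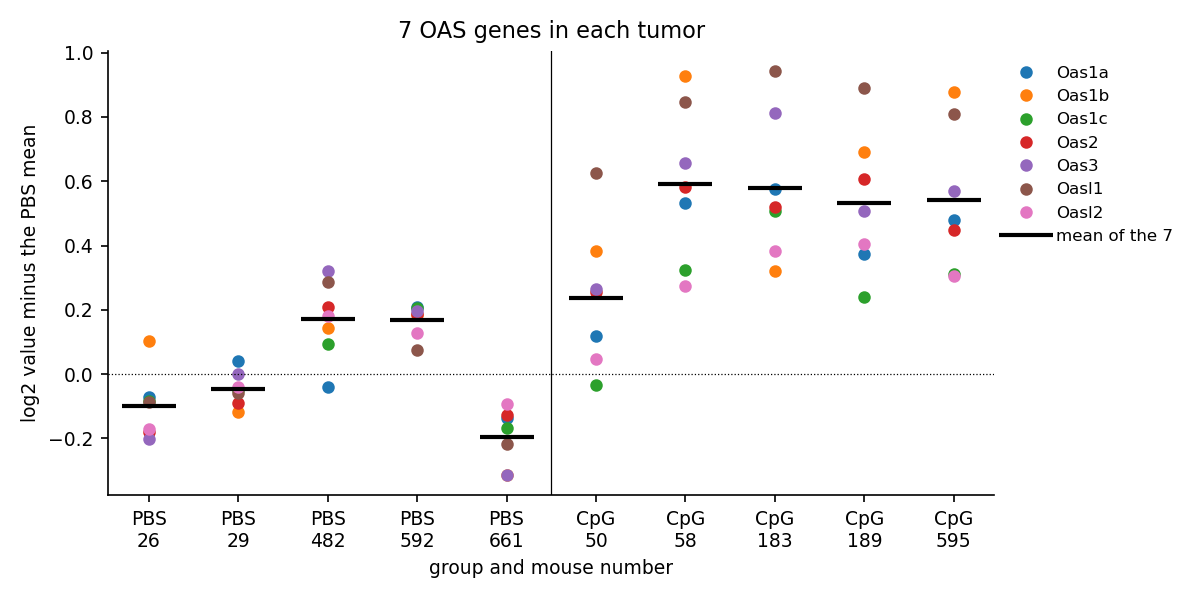
Log2 value of 7 OAS genes in each tumor minus the gene's PBS mean, one column per mouse, PBS at left and CpG1826 at right. Coloured points are genes and black bars the mean of the 7. The bar of CpG1826 mouse 50 (0.24) lies between those of the PBS tumors (up to 0.17) and those of the other CpG1826 tumors (0.53 to 0.59).

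The mean of 27 other measured interferon-stimulated genes placed the same tumors low. Their mean log2 level was 9.82 in mouse 50, 10.10 to 10.20 in the other CpG1826 tumors and 9.40 to 9.81 in PBS tumors, where mouse 661 was again the lowest. Mouse 50 was also the lowest CpG1826 tumor in 6 of 13 cell type marker lists: macrophage (mean log2 level 9.56, group up to 9.95), T cell (7.04, up to 7.68), NK cell (5.87, up to 6.71), plasmacytoid dendritic cell (6.23, up to 6.41), fibroblast (9.89, up to 10.47) and endothelial markers (7.07, up to 7.45). It was the highest in 2 lists, neutrophil (6.23, from 5.74) and fat cell markers. PBS mouse 661 was the lowest PBS tumor in 4 lists, among them macrophage (9.62), T cell (6.94) and NK cell markers (5.79). Mouse 661 was the highest PBS tumor in 3 lists, neutrophil (5.32), plasmacytoid dendritic cell (6.30) and keratinocyte markers (5.88). The part of these cell types in the low OAS values of both tumors was not tested.

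The members differed among themselves in the size of the measured change. For each of 21 pairs of the 7 genes above, the difference of the pair's log2 values within a tumor was compared between the groups with an exact permutation test (two-sided, smallest possible p = 0.00794), adjusted over the 21 pairs. In 9 pairs the adjusted p was under 0.05. Oasl1 changed more than Oasl2 by 0.54 ± 0.05 (SE, exact permutation adjusted p = 0.0278), more than Oas1c by 0.55 ± 0.07, more than Oas2 by 0.34 ± 0.05 and more than Oas3 by 0.26 ± 0.07 (each with the same adjusted p), and more than Oas1a by 0.41 ± 0.09 (exact permutation adjusted p = 0.0370). Oas2 changed more than Oasl2 by 0.20 ± 0.04 (exact permutation adjusted p = 0.0278), and Oas3 more than Oasl2 by 0.28 ± 0.08 (exact permutation adjusted p = 0.0370). Both Oas3 (0.29 ± 0.07) and Oas1a (0.15 ± 0.04) changed more than Oas1c. The differences of Oasl1 from Oasl2, Oas1c and Oas2, and of Oas2 from Oasl2, passed in all 10 fits that leave out 1 mouse. The other 5 passed in 2 (Oas3 and Oasl2) to 9 (Oas3 and Oasl1) of these fits. The number of pairs that passed was 4 without CpG1826 mouse 50 and 5 without CpG1826 mouse 595. Each gene was read by a probe of its own. Of the 7 genes, Oas1c alone lay below the median level of all genes, and Oasl2 was the brightest. Whether the probes of a pair compress a change to a different degree was not tested, so these are differences in probe signal.

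Other pairs were not separated. Oas2 and Oas3, which lie side by side, differed in response by -0.08 ± 0.08 (SE, exact permutation adjusted p = 0.463), Oas1a and Oas2 by -0.07 ± 0.09, and Oas1c and Oasl2 by -0.01 ± 0.06. None of the 6 pairs with Oas1b passed, and its differences had the widest errors (SE 0.13 to 0.17). The errors of these pairs, other than Oas1c and Oasl2, leave room for differences as large as some found in other pairs. For Oas1c and Oasl2 that holds only for the smallest such difference, 0.15 (Oas1a and Oas1c).

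**Figure D4:**
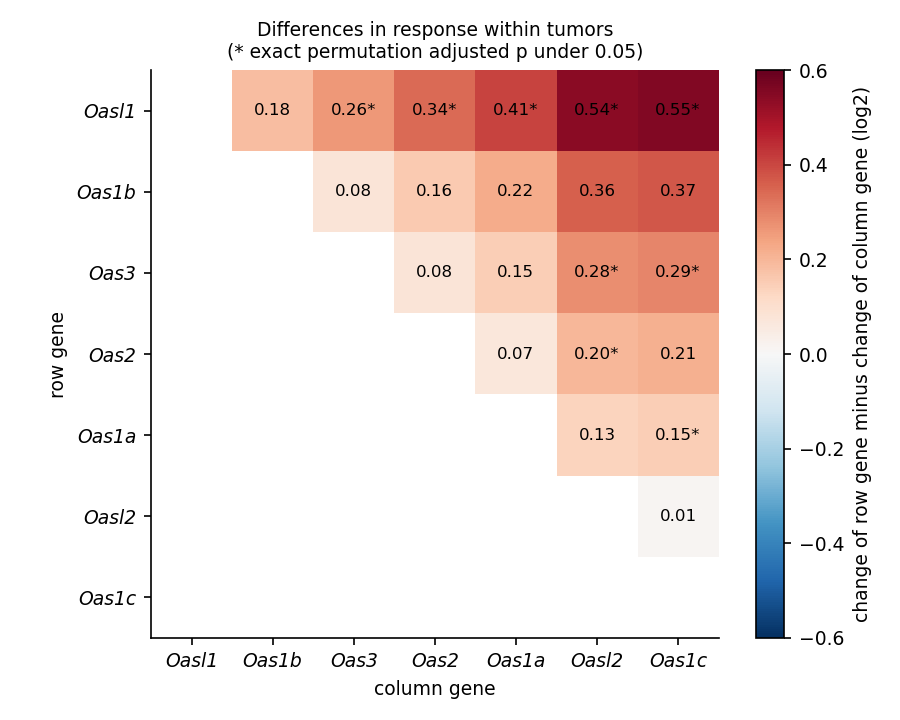
Difference in response for the 21 pairs of 7 OAS genes: the log2 change of the row gene minus that of the column gene (CpG1826 minus PBS, 5 tumors per group). Stars mark an adjusted p under 0.05 in the exact permutation test. The row of Oasl1 holds the largest values, up to 0.55, and its only unstarred cell is Oas1b.

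No gene measured downstream of the synthetases passed. Of 5 listed genes that act on or remove 2′-5′ oligoadenylates, 3 were measured and 0 passed in either direction by limma, and 0 also at an unadjusted p under 0.05. With 4.66% of all genes called in either direction, 0 of 3 is near the overall share. Abce1, known as an inhibitor of the oligoadenylate pathway, differed by -0.12 ± 0.06 (SE), and Pde12 and Akap7, phosphodiesterases that degrade the chains, by -0.04 ± 0.07 each. The same held for 3 measured genes with an OAS-like fold, of which 0 passed, also at an unadjusted p under 0.05: Cgas, the cytosolic DNA sensor (0.05 ± 0.09), Ilf2 (-0.14 ± 0.07) and Zfr (0.00 ± 0.06).

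Sensors and effectors of double-stranded RNA rose in part. Of 12 measured genes, 2 rose and 0 fell, where 3.56% and 1.1% of all genes did, with a median log2 fold change of 0.28. At a limma unadjusted p under 0.05, 9 of the 12 were higher and 0 lower, against 8.13% and 7.43% of all genes. Trim25, a ubiquitin ligase for RIG-I, rose by 0.56 ± 0.10 and Ifih1, which encodes the sensor MDA5, by 0.52 ± 0.12 (SE, limma adjusted p = 0.00322 and 0.0281). The count at the adjusted threshold was 4 without CpG1826 mouse 50 and 1 in 7 of the other 9 fits that leave out 1 mouse. The exceptions were PBS mice 482 and 592, without which it was 2.

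Signal genes of the interferon receptor rose in 2 of 11 measured members and fell in 0, where 3.56% and 1.1% of all genes did. Their median was 0.14. At a limma unadjusted p under 0.05, 5 of the 11 were higher and 0 lower, against 8.13% and 7.43% of all genes. Usp18, a feedback inhibitor of the type I interferon receptor, rose by 0.88 ± 0.13 (SE, limma adjusted p = 0.000970) and Stat2 by 0.50 ± 0.11 (limma adjusted p = 0.0167). Irf7 (0.36 ± 0.11, limma adjusted p = 0.0959) and Irf9 (0.25 ± 0.08, limma adjusted p = 0.102) did not pass. Tlr9, the receptor of CpG1826, differed by -0.24 ± 0.09 (limma adjusted p = 0.211).

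Interferon genes gave no call. Of 15 measured, 0 passed the limma test, with 1 higher and 2 lower at an unadjusted p under 0.05 and a median of -0.03. A share of 4.66% of all genes was called in either direction, and 0 of 15 is near it. Ifnb1, the early type I interferon, had a mean of 4.85 ± 0.13 with PBS and 5.04 ± 0.19 with CpG1826 (SD, 5 tumors each; difference 0.19 ± 0.10, limma adjusted p = 0.382). The brightest probes, those of Ifnz and Ifnl2, differed by -0.17 each. The level of 12 of the 15 was under that of the median gene, and after quantile normalization 1 interferon gene was called higher.

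Among 27 other interferon-stimulated genes, 14 rose and 0 fell, where 3.56% and 1.1% of all genes did. Their median log2 fold change was 0.38. The largest changes were those of Mx2 (1.27 ± 0.13), Rsad2 (1.04 ± 0.11), Mx1 (0.92 ± 0.11) and Cmpk2 (0.91 ± 0.12, SE; limma adjusted p = 5.13e-05 to 0.000378), all above the 0.82 of Oasl1. Leaving out any one of PBS mice 26, 29 and 661 and CpG1826 mouse 58 gave a count of 8, and leaving out CpG1826 mouse 595 gave 9.

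No gene that flanks the family passed. Of the 12 nearest measured genes, 3 on each side of both OAS sites, 0 passed by limma in either direction, also at an unadjusted p under 0.05, with a median of 0.01. Since 4.66% of all genes were called in either direction, 0 of 12 is near the overall share. Beside the Oas run, Dtx1, Rasal1 and Ddx54 on one side differed by -0.01, -0.03 and 0.04, and Rph3a, Ptpn11 and Rpl6 on the other by -0.10, 0.06 and 0.01 (log2, SE 0.06 to 0.10). Beside the Oasl pair the differences lay between -0.22 (2610524H06Rik) and 0.04 (2210016L21Rik).

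**Figure D5:**
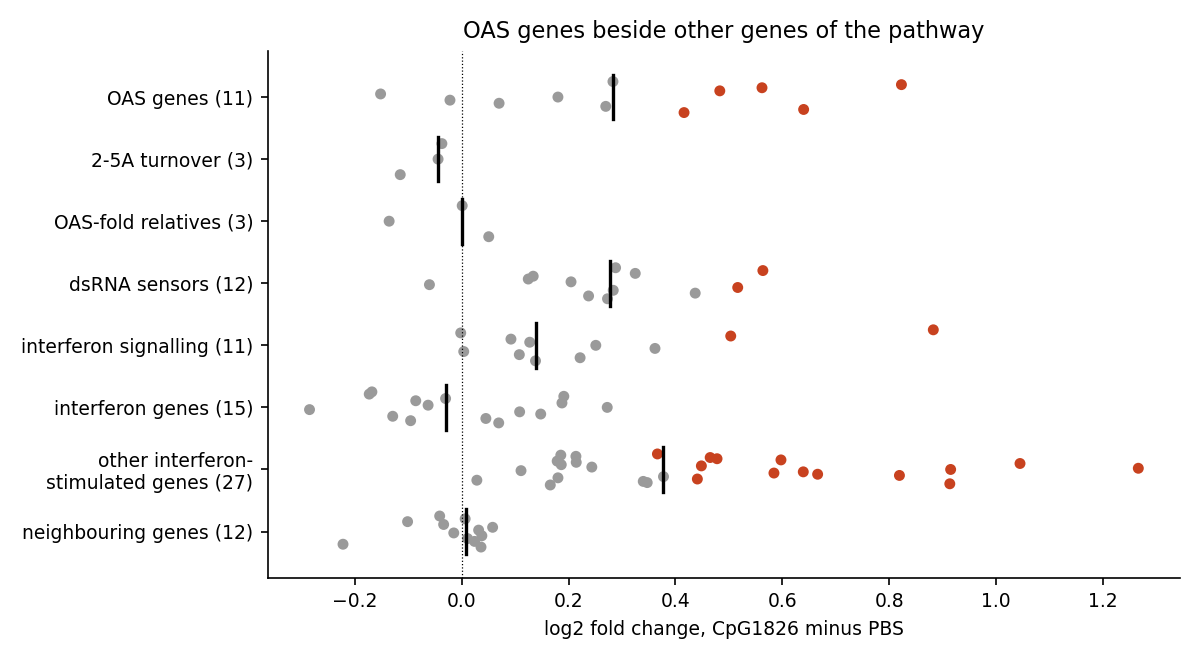
Log2 fold change (CpG1826 minus PBS, 5 tumors per group) of each measured gene in 8 lists, with the number measured in parentheses. Points are genes, red where the limma adjusted p is under 0.05, and black bars are list medians. OAS genes, double-stranded RNA sensors, interferon signal genes (up to 0.88) and other interferon-stimulated genes extend to the right. Genes of oligoadenylate turnover and OAS-fold relatives lie around 0. So do most neighbouring genes, with 1 at -0.22. Interferon genes lie on both sides of 0, from -0.28 to 0.27.

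The genes most like the family were sought by the root mean square difference, over the 10 tumors, between each gene's distance from its PBS mean and the average distance of the 7 OAS genes. The closest genes outside the family were Samd9l (0.06 log2 units), Herc6 (0.07), Znfx1 (0.07), Trim30a (0.08) and Ifih1 (0.08). Samd9l and Znfx1 encode antiviral proteins and Herc6 a HECT-type ligase. The log2 fold changes of these closest genes were 0.45, 0.44, 0.42, 0.47 and 0.52. Changes near the OAS average follow from how the genes were picked. Oas2 itself lay at 0.06 from the average it belongs to, and Oasl1 at 0.24.

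Most keratinocyte markers and some neutrophil markers moved with the groups, and the other marker lists held few calls. Of all genes, 3.56% were called higher and 1.1% lower. A single call in a marker list is not read as a result about its cell type. The array medians lay between 6.47 and 6.53 and the arrays correlated at r = 0.980 to 0.994 across probes, which are not independent. Of 14 keratinocyte markers, 11 rose (Krt1 by 3.06 and Krt5 by 2.95), and their mean log2 level was 5.29 to 5.88 in PBS and 6.81 to 7.39 in CpG1826 tumors. Of 10 neutrophil markers, 6 rose (S100a8 by 2.13 and Cxcr2 by 1.64), with 5.13 to 5.32 against 5.74 to 6.23, while Ly6g, Ngp, Camp and Ltf did not pass (0.00, 0.05, -0.07 and -0.03). The part of neutrophils in the OAS result was not tested. Of 10 macrophage markers 1 rose (Fcgr1, 0.40) and 1 fell (Csf1r, by 0.46), and the means overlapped (9.62 to 9.95 and 9.56 to 9.95). Of 5 plasmacytoid dendritic cell markers Spib rose by 0.83, and Siglech, which defines these cells, differed by -0.04. Of 10 intestinal epithelial markers, among them Vil1, Cdx2 and Cdh17, 2 lay above the median level of all genes, Krt8 and Cdh1, and 2 rose, Cdh1 by 0.63 and Epcam by 0.32. Of 8 T cell markers Il7r alone passed (1.18), while the list's median was -0.23 and 6 of 8 lay below 0, among them Cd3e (-0.35) and Cd3g (-0.51). Of 8 markers of conventional dendritic cells Ccr7 alone passed (0.75), with a median of -0.10 and 6 of 8 below 0. Of 7 endothelial markers Tek fell by 0.34, with a median of -0.06, and Pecam1 was at 0.37 without passing (limma adjusted p = 0.122).

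The OAS changes were set beside these scores in fits that add a score as a covariate. With the macrophage score, 6 OAS genes passed, all higher, where 4.16% of all genes did. They were the 5 above and Oas1c (0.36, limma adjusted p = 0.0309), and Oasl1 was at 0.88. With the keratinocyte score, which is nearly collinear with the group (r = 0.966), 0 passed by limma, where 0.727% of all genes did. At an unadjusted p under 0.05, 6 members were higher and 1 lower (Oas1d), against 7.38% and 11.8% of all genes in that fit. Estimates then were larger with wide errors: 1.32 ± 0.34 for Oasl1, 1.63 ± 0.39 for Oas3, 1.24 ± 0.28 for Oas1a, 1.203 ± 0.49 for Oas1b and 0.89 ± 0.36 for Oas2 (SE, limma adjusted p = 0.0635 to 0.219). The scores of the groups do not overlap, so these estimates are extrapolated.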

How the data were processed

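Total RNA of 10 tumors was labelled with biotin by a whole-transcript kit for Affymetrix arrays, per the labels' protocols. The authors deposited log2 values, 1 per probe and array, with nearly equal array medians. Base 2 was inferred from the range of 2.03 to 14.7. R 2.7.1 and limma were used upstream, per the submitters' processing notes. The sources used here do not give the steps of background correction, summarization and normalization. Detection calls were not used.

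Of 35512 probes, 21789 carry 1 gene symbol in the array's annotation, 1621 several and 12102 none; 21698 matched RefSeq. The probe with the highest mean stood for each of 19938 genes, with no filter. Groups were compared in R 4.3.3 by limma 3.58.1 (lmFit, then eBayes, two-sided), with Benjamini-Hochberg adjustment over all genes, a threshold of 0.05 and 95% confidence intervals, after tests on simulated data. Fold changes are CpG1826 over PBS. Mouse numbers differ between groups, so nothing was blocked on, and precision is limited by having 5 arrays per group. The label of each array ends in a number of its own, which was read as a mouse number.

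The members and lists were chosen with earlier results of these data known. The membership rule gives 11 genes, while the pair tests and the likeness search were set up for 7 of them (without Oas1d, Oas1e, Oas1f and Oas1h). Named genes were all members, all measured genes of the oligoadenylate turnover and OAS-fold lists, up to 4 called members of the other lists with the largest change (the 2 with the highest level where none was called), up to 2 called markers of a cell type, the neighbours, the 5 nearest in likeness, and Irf7, Stat2, Irf9, Ifnb1 and Tlr9. Markers named as not passing were chosen after their values were seen. Marker lists for conventional dendritic cells (1 of 8 rose), T cells (1 of 8), NK cells (0 of 6), B cells (0 of 5), fibroblasts (0 of 8), endothelium (0 of 7, 1 fell), muscle (0 of 6) and fat (0 of 5) were also counted. The shares over all genes were 3.56% higher and 1.1% lower.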

Additional observations from a re-analysis of the deposited data

How the results depend on the processing

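The alternatives were quantile normalization, median centring, array weights, a prior both trended and robust, filters on level, other choices of probe, a stricter threshold, a 1.5-fold minimum (limma treat), marker scores as covariates and leaving out each mouse. Of 233 member fold changes under these alternatives, 200 kept their direction and side of the threshold. This count is not a measure of robustness. It includes members that were not called and stayed so. Filters, the prior, the stricter threshold and the 1.5-fold minimum leave a member's fold change as it was. The choice of probe does so too, because 0 members have several probes. The number of OAS genes that rose was 5 as reported, 2 at an adjusted p under 0.01 (Oasl1 and Oas2), 0 against the 1.5-fold minimum, 0 with the keratinocyte covariate, and 3 to 6 when 1 mouse was left out. The 18 genes called higher in the other pathway lists together became 9, 1 and 0 under the same 3 settings, and 11 to 22 when 1 mouse was left out. With the keratinocyte covariate 0.727% of all genes were called in either direction. For the stricter threshold, the 1.5-fold minimum and the fits without 1 mouse, the share of all genes called is not given here. The lower counts there are therefore not read as particular to the OAS genes. The members whose groups do not overlap numbered 4 to 8, and the pairs that passed 4 to 12, when 1 mouse was left out; after quantile normalization 7 pairs passed. Oasl2 passed with the trended and robust prior (limma adjusted p = 0.0464). Oas1d reversed to -0.95 with the keratinocyte covariate and ran from -0.052 to 0.14 when 1 mouse was left out, negative for PBS mouse 592 (-0.052) and CpG1826 mouse 189 (-0.0042). Oas1e ran from -0.12 to 0.038 in those fits, positive for PBS mice 29 (0.0029) and 661 (0.0032) and for CpG1826 mice 50 (0.026) and 595 (0.038). Neither gene was called. Filters on level left out Oas1d, Oas1e, Oas1f and Oas1h, and the stricter one also Oas1c. No paired analysis was possible because no mouse number occurs in both groups.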

Other observations

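Beyond the interferon-linked genes, the list of genes closest to the OAS profile went on with Parp14 and Tor3a, both on the list of interferon-stimulated genes, and with Aftph, Stxbp3 and Fndc3a, which are on none of the lists used. Aftph encodes a trafficking adaptor and Stxbp3 a protein of vesicle fusion. Their log2 fold changes were 0.40 and 0.40, and that of Fndc3a 0.45, with a root mean square difference of 0.09 log2 units from the OAS average for each. The search picked genes with a profile like the OAS average in these same tumors. A rise of similar size follows from that choice and is not a separate test result. These genes were named after their values were seen.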
